A study of Mus musculus with 11 samples.

Results

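Imprinted genes are transcribed from the maternal or the paternal chromosome but not equally from both, and here 37 autosomal imprinted genes of the mouse were followed through single 8-cell embryos that lacked PRDM10 or retained it. The 37 genes are a list of symbols to which no cutoff on level or change was applied, although other results of these data were known when it was drawn up, and all 37 were matched by Ensembl identifier among the 54146 genes in the expression tables. Embryos were recovered at embryonic day 2.5 from intercrosses of *Prdm10Δ/+* mice on a C57BL/6 background. The mutant group (*Prdm10* KO, 5 embryos) carried *Prdm10Δ* on both alleles, a constitutive null allele made by ACTB-Cre deletion of exon 5, and the control group (6 embryos) held wild-type and heterozygous embryos together (*Prdm10* WT/HET). Every embryo came from a *Prdm10Δ/+* mother, and sorting into groups rested on detection of exon 5 in the cDNA of the embryo itself. Libraries were made by Smart-seq2, which does not keep strand, in batch 1 (16 cycles of PCR pre-amplification, controls 4 to 6 and mutants 4 and 5) and batch 2 (13 cycles, controls 1 to 3 and mutants 1 to 3).

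An imprint is laid down in the germline as DNA methylation of a control region on a single parental copy, most often the maternal one, and it has to survive the wave of demethylation that sweeps the genome between fertilisation and the blastocyst. KRAB zinc finger proteins such as ZFP57 and ZFP445, with their partner TRIM28, hold that methylation in place. A smaller class, called noncanonical, is instead silenced on the maternal copy by histone H3 lysine 27 methylation inherited from the oocyte, and its paternal expression is known in the preimplantation embryo and later in extraembryonic tissue. Oocytes also store transcripts, so a transcript in an 8-cell embryo may be maternal RNA, RNA from the embryonic genome or both, and these tables do not record which allele a read came from.

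Of the 37 genes, 25 are known for paternal expression, 10 for maternal expression, and *Gnas* and *H13* for isoforms with different allelic origin. By imprint, 25 belong to maternally methylated regions, 2 to the paternally methylated *H19* and *Igf2* region, 5 to the paternally methylated *Dlk1* and *Meg3* region and 5 to the noncanonical class. Promoter sequences from RefSeq (GRCm38.p6, 250 bases before to 50 bases after the annotated start) were found for 30 of the 37 genes, 50 promoters in all. TGCCGC, the hexamer that ZFP57 binds when methylated, was searched on both strands and stood in at least 1 promoter of 10 genes (*Grb10*, *Igf2*, *Mcts2*, *Meg3*, *Mest*, *Nap1l5*, *Nnat*, *Plagl1*, *Snrpn* and *Zim1*). By promoter this was 11 of 50, or 22.0% of the imprinted promoters against 11.6% of all 32851 promoters. *Mest* counted with 2 promoters that overlap, starting at 30737800 and 30737803. The hexamer contains a CpG. All promoters had a median of 7 CpG, while imprinted promoters held from 0 (*Rian*) to 45 (*Grb10*), and the shares were not adjusted for this. The 3 promoters that follow were chosen because they carry this hexamer while their genes were at very different levels. Capitals mark the hexamer on either strand. *Snrpn*, of whose 4 promoters in RefSeq only the one shown here (chr7:60005150-60005449, minus strand) held the hexamer, was the most abundant of the 37 genes. *Mcts2* (chr2:152686898-152687197, plus strand) is a retrogene inside *H13* that had reads in every embryo. *Nap1l5* (chr6:58907077-58907376, minus strand) is a retrogene inside *Herc3* that gave no read in any embryo.
Snrpn: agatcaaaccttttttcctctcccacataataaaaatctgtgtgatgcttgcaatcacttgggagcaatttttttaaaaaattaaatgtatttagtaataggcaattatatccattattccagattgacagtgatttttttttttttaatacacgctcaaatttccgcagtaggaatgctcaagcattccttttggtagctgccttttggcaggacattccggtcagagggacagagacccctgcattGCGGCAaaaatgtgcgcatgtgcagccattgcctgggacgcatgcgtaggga
Mcts2: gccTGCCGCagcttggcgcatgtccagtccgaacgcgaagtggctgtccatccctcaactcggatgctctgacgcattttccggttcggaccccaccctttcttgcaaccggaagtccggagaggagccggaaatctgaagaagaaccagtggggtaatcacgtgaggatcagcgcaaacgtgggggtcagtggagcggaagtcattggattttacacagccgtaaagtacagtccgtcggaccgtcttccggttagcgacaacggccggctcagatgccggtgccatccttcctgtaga
Nap1l5: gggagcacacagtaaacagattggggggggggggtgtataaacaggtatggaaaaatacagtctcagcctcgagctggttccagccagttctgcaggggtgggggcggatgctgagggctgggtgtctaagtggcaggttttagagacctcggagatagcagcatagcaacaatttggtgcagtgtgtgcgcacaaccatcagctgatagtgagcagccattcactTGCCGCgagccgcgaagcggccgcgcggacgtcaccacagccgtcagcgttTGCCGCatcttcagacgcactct
The promoters shown held 1 copy for *Snrpn*, 1 for *Mcts2* and 2 for *Nap1l5*.

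PRDM10 is a zinc finger transcription factor, and the study's gel shift probe for its recognition sequence gave a pattern of letters to look for. In the probe, printed next, capitals mark the 8 bases that the study changed in its mutated probe.
WT gel shift probe: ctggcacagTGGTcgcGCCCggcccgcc
The pattern TGGTNNNGCCC formed by those bases, searched on both strands, stood in 1.45% of all promoters and in 1 of the 50 imprinted promoters, that of *Zrsr1* at chr11:22971755-22972054 on the plus strand.
Zrsr1: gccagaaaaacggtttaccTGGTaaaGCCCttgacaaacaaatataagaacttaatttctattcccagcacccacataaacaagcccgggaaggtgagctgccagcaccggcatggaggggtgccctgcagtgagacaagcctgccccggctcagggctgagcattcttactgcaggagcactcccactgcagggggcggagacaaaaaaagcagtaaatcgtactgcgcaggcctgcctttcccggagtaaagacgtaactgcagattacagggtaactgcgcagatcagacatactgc
None of the 4 *Gnas* promoters held these letters, although *Gnas*, with *Magel2*, is among the imprinted genes that the study lists as associated with PRDM10 binding in embryonic stem cells. A match of letters is a description of the sequence and does not show a binding site.

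The libraries held between 3534735 and 8265840 summed expected counts, the RSEM estimate of reads per gene. *Prdm10* itself was detected at 11.1 to 24.8 TPM in controls and 4.88 to 8.16 TPM in mutants (TPM is a read share corrected for gene length), without overlap, as was so for 0.871% of all genes tested. In DESeq2-normalised counts the groups overlapped (124 to 381 in controls, 104 to 202 in mutants), and the difference did not pass the adjusted threshold (log2 fold change -0.66, adjusted p = 0.224). All 7 markers of the 8-cell embryo, *Pou5f1* and *Tead4* among them, reached a mean of 1 TPM in each batch, the lowest single value being 0.42 TPM for *Gata3* in mutant 2. Of these markers *Klf5* was higher in mutants at an adjusted p under 0.05 (log2 fold change 0.84, adjusted p = 1.16e-06 by DESeq2). Of all genes tested 1.38% passed that threshold. *Pou5f1*, *Dppa5a*, *Tfap2c* and *Tead4* were higher and *Nanog* lower at an unadjusted p under 0.05 only (11.9% of all genes tested). For *Nanog* the log2 fold change was -1.05, or -0.63 without control 1. The summed level of the 7 cumulus and granulosa cell markers was 0 to 0.15 TPM in batch 1 and 0 to 7.83 TPM in batch 2, the highest being *Inha* in mutant 2 (75 expected counts, against 0 in the other embryos), and *Foxl2*, *Has2* and *Ptx3* were at 0 in every embryo. The summed level of 5 oviduct markers was 32.5 to 44.9 TPM in batch 1 and 46.9 to 74.3 TPM in batch 2. It came mostly from *Epcam*, which the embryo also expresses, except in mutant 3, where *Epcam* was at 22.1 TPM and *Ovgp1* at 30.1 TPM. The oviduct secretory gene *Ovgp1* ranged from 0 to 0.81 TPM in batch 1 and from 1.45 to 30.1 TPM in batch 2. Control 1 stood apart from the other libraries. Of 7383 genes with a mean of at least 5 TPM, 53 were more than 2 times the next highest embryo in control 1 and 227 were below 50% of the next lowest, against 3 to 14 and 13 to 95 genes in the other embryos. Log2 fold changes between mutants and controls that moved by over 1.5 times when control 1 was left out are therefore given with and without it. Mean TPM of single genes includes control 1 unless stated otherwise, and differences in it can rest on that embryo. In bulk RNA of an embryo fewer expressing cells and less RNA per cell cannot be told apart.

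Of the 37 imprinted genes, 14 reached a mean of at least 1 TPM over the 6 controls (37.8%, against 21.5% of all genes in the tables), 16 gave reads but stayed under that mean, and 7 gave no read in any of the 11 embryos. TPM is scaled to gene length, so levels of different genes can be set side by side. The summed TPM of the 37 genes was 358 ± 53.8 TPM over the controls (SD, n = 6) and 332 ± 61.5 TPM over the mutants (SD, n = 5). With control 1 left out the controls stood at 347 ± 52.4 TPM (SD, n = 5). *Snrpn*, which encodes a small nuclear ribonucleoprotein that works in splicing, made up 42.7% ± 14.8 of the summed TPM in controls (SD, n = 6), and for mutants the share was 45.4% ± 1.84 (SD, n = 5). Without control 1 the share in controls was 48.2% ± 6.78 (SD, n = 5). Its 6 controls were at 62.4 (control 1), 139, 147, 149, 167 and 234 TPM, and its 5 mutants at 121, 123, 149, 169 and 195 TPM. All 5 mutants lay inside the control range, and control 1 was the lowest of the 11 embryos. Even so, 1003 genes in the tables had a higher mean level in controls than *Snrpn*.

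**Figure D1:**
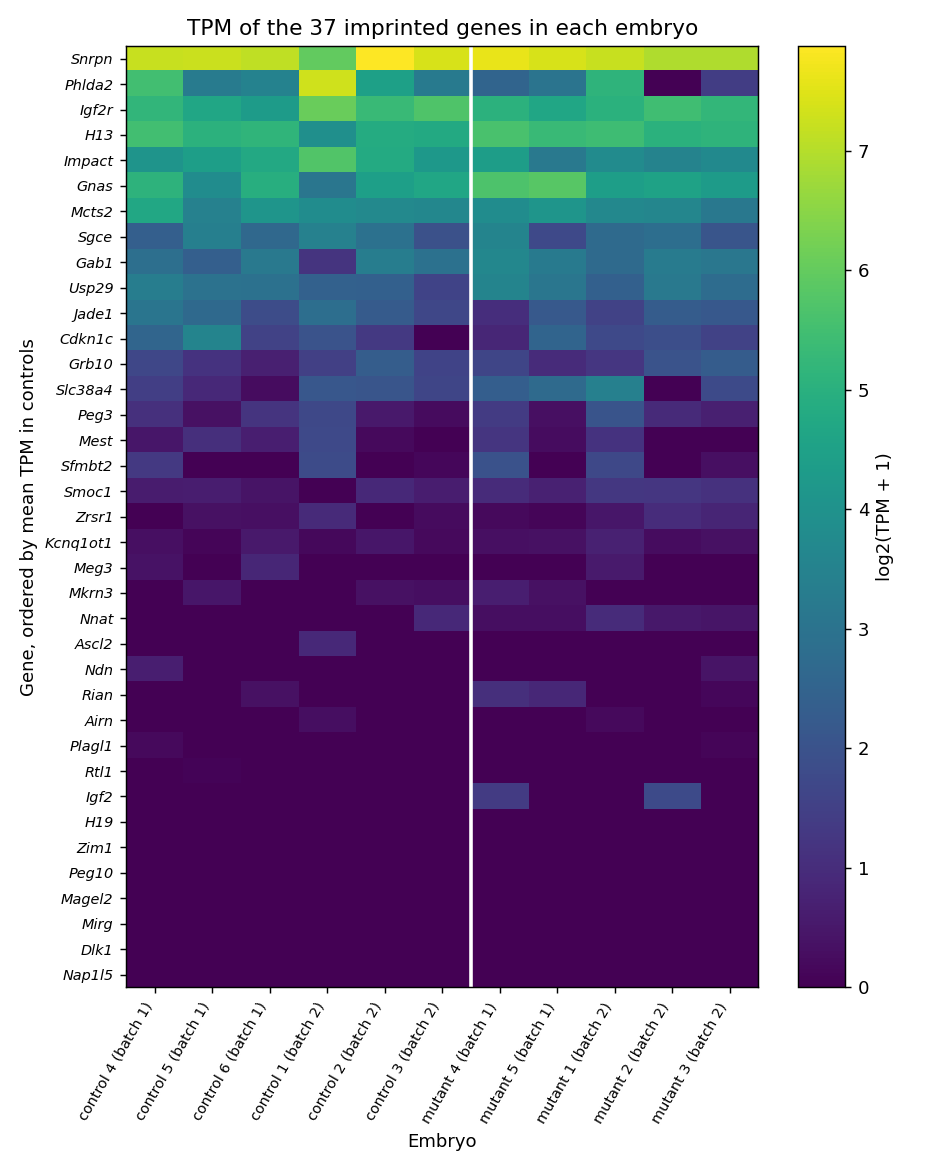
Level of each of the 37 imprinted genes (rows, ordered by their mean in controls) in each of the 11 embryos (columns, controls left of the white line), as log2(TPM + 1). *Snrpn* is the brightest row in 10 of the 11 embryos, *Phlda2* is brightest in control 1, and the lowest 7 rows are at 0 in every embryo.

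Maternally expressed genes contributed 86.9 ± 72.0 TPM in controls (SD, n = 6) and 48.5 ± 12.7 TPM in mutants (SD, n = 5), and without control 1 the controls stood at 58.5 ± 20.6 TPM (SD, n = 5). *Igf2r*, the receptor that carries insulin-like growth factor 2 to the lysosome for degradation, was at 39.4 ± 17.5 TPM in controls (SD, n = 6) and 33.6 ± 6.85 TPM in mutants (SD, n = 5). With control 1 left out the control mean of *Igf2r* was 33.9 TPM. Its antisense partner *Airn*, the paternal noncoding RNA known to silence the paternal copy of *Igf2r* in later tissues, gave 2 reads in all, 1 in control 1 and 1 in mutant 1. Because strand was not kept, reads in the stretch that both genes cover cannot be assigned by strand. *Phlda2*, a maternally expressed gene known to limit placental growth, was at 156 TPM in control 1 and between 8.35 and 43.6 TPM in the other 5 controls. With all 6 controls it was the most uneven of the maternally expressed genes with a control mean of at least 1 TPM. Mutants were at 0, 1.71, 4.81, 7.26 and 33.9 TPM. Without control 1 the control mean of *Phlda2* was 18.5 TPM in place of 41.5 TPM. *Cdkn1c*, the cell cycle inhibitor p57 from the same cluster, was much lower, from 0 TPM in control 3 to 10.7 TPM in control 5. With control 1 left out its coefficient of variation in TPM (SD as a share of the mean) was 112% among controls, above the 81.5% of *Phlda2*. *Grb10*, an adaptor that dampens insulin and growth factor receptors, ranged from 0.61 to 3.98 TPM, and *H19*, *Mirg* and *Zim1* gave no read.

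The paternally expressed genes summed to 220 ± 46.1 TPM in controls (SD, n = 6) and 211 ± 43.0 TPM in mutants (SD, n = 5). Without control 1 the controls stood at 231 ± 40.5 TPM (SD, n = 5). After *Snrpn*, the most abundant was *Impact*, a regulator of the translational stress kinase GCN2, at 26.5 ± 13.3 TPM in controls (SD, n = 6) and 12.8 ± 4.45 TPM in mutants (SD, n = 5). *Mcts2*, a retrogene copy of the translation initiation factor *Mcts1*, followed at 14.8 ± 5.64 TPM in controls (SD, n = 6), and mutants ranged from 7.89 to 16.1 TPM. Its source gene *Mcts1* was higher, at 59.3 ± 26.2 TPM in controls (SD, n = 6). *Sgce*, which encodes epsilon-sarcoglycan, and *Usp29*, a deubiquitinase gene, were both present in every embryo, at 2.37 to 10.9 TPM and 2.03 to 10.7 TPM. *Peg10*, whose promoter lies head to head with that of *Sgce*, gave no read at all. *Peg3*, a zinc finger gene paired head to head with *Usp29*, was near the floor of reliable detection, from 0.17 TPM in control 3 to 3.17 TPM in mutant 1. Divergent neighbours that share an imprinted region thus differed in level in both pairs.

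*Gnas*, which encodes the stimulatory G protein alpha subunit, and *H13*, a signal peptide peptidase gene, are each known for isoforms of different parental origin. *H13* was at 29.9 ± 10.1 TPM in controls (SD, n = 6) and 39.1 ± 6.40 TPM in mutants (SD, n = 5). *Gnas* was at 21.5 ± 9.73 TPM in controls (SD, n = 6) and 33.7 ± 18.3 TPM in mutants (SD, n = 5), with the highest values in mutants 4 and 5 of batch 1. RSEM placed the reads of *Gnas* with less certainty than those of any other imprinted gene with at least 10 expected counts in every embryo, the posterior SD being 10.6% of the count in the median embryo and up to 15.9%. *Gm20721*, a protein-coding gene on the opposite strand within *Gnas*, was at a mean of 19.98 TPM over all embryos. Without strand, reads in the stretch that *Gnas* and *Gm20721* share cannot be assigned by strand. The part of this in the level of *Gnas* and its difference between groups was not tested. The tables sum isoforms into genes, but the effective length of a gene moves with the isoforms its reads were given to. It could be compared for 9 of the 18 imprinted genes with a mean normalised count above 10, because it moved by at most 2 bases in 4 (*Impact*, *Mcts2*, *Kcnq1ot1* and *Snrpn*) and 5 had no reads in at least 1 embryo. For none of the 9 did a difference between mutants and controls pass the test (lowest unadjusted p = 0.195, lowest adjusted p = 0.439, exact permutation test, two-sided, over all splits of the embryos into 6 and 5, adjusted over the 18 genes), in which the batches were not kept apart. For *Gnas* the effective length was 1586 ± 74.0 bases in controls (SD, n = 6) and 1597 ± 46.6 bases in mutants (SD, n = 5).

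The 5 noncanonical genes together stood at 13.6 ± 2.90 TPM in controls (SD, n = 6) and 17.8 ± 3.14 TPM in mutants (SD, n = 5). *Gab1*, an adaptor of growth factor receptor signalling, supplied the largest share, at 5.95 ± 2.84 TPM in controls (SD, n = 6) and 8.37 ± 2.14 TPM in mutants (SD, n = 5). *Jade1*, a chromatin reader of a histone acetyltransferase complex, was at 4.60 ± 2.08 TPM in controls (SD, n = 6) and 2.79 ± 1.24 TPM in mutants (SD, n = 5). *Slc38a4*, an amino acid transporter gene that is abundant in placenta, was at 1.93 ± 1.27 TPM in controls (SD, n = 6) and 4.39 ± 3.68 TPM in mutants (SD, n = 5), from 0 in mutant 2 to 9.82 TPM in mutant 1. *Sfmbt2*, a Polycomb group gene, gave reads in 6 of the 11 embryos only and reached 2.96 TPM in mutant 4. *Smoc1*, which encodes a secreted calcium-binding matrix protein, stayed between 0 and 1.43 TPM.

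The paternally methylated regions were close to silent. *H19*, *Dlk1* and *Mirg* gave no read, *Igf2*, the fetal growth factor, gave 7 expected counts in mutant 2 and 2 in mutant 4, and none in the other 9 embryos. From the *Dlk1* and *Meg3* region, *Meg3* gave 10.8 expected counts over all 11 embryos, *Rian* 13, and *Rtl1* a single one. Over all libraries, 3 counts correspond to 0.044 CPM (counts scaled to the library total), which is the upper limit that a count of 0 allows for the 7 genes without reads (*H19*, *Zim1*, *Peg10*, *Magel2*, *Mirg*, *Dlk1* and *Nap1l5*). In the single libraries the limit was 0.363 to 0.849 CPM. These limits cover counting error only, since reads without molecular identifiers are not independent molecules. Of the Prader-Willi region neighbours of *Snrpn*, *Ndn* gave 16 expected counts in all, *Mkrn3* 17 and *Magel2* none, so the high level of *Snrpn* was not shared by these genes.

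The remaining low genes were *Mest*, a hydrolase-like gene of the mesoderm, at 0 to 2.36 TPM with the highest value in control 1, and *Zrsr1*, a splicing factor retrogene, at 0 to 0.99 TPM. *Zrsr1* lies within *Commd1*, whose level was 106 ± 39.1 TPM in controls (SD, n = 6), and its source gene *Zrsr2* averaged 32.6 TPM. *Nnat* gave 14 expected counts in all while *Blcap*, the gene around it, was at 7.82 ± 2.13 TPM in controls (SD, n = 6), and *Herc3*, the host of *Nap1l5*, was at 0.588 ± 0.305 TPM. *Ascl2* gave 8 expected counts, all in control 1, and *Plagl1* gave 6 over 2 embryos. *Kcnq1ot1*, a paternal noncoding RNA that silences its neighbours in cis, had 29.6 to 299 normalised counts but only 0.07 to 0.65 TPM, because these reads are spread over a single transcript of about 93020 bases. All 14 genes at a mean of 1 TPM or more had a mean normalised count above 10, and *Kcnq1ot1*, *Peg3*, *Sfmbt2* and *Smoc1* passed that count with a lower TPM.

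Mutants were compared with controls by the DESeq2 Wald test with batch as a covariate, on all genes with a mean normalised count above 10. Of the 37 imprinted genes, 18 passed this filter on low counts and 19 did not. None of the 18 was called at an adjusted p under 0.05, where the background was 1.38% of the 10448 genes tested (56 higher and 88 lower in mutants). By unadjusted p, 2 of the 18 were under 0.05 (*Impact* lower, *H13* higher), against 11.9% of all genes tested. edgeR called none of 17 tested imprinted genes at an adjusted p under 0.05, with 3 under an unadjusted 0.05 (17.6%), beside 0.311% called and 9.19% under an unadjusted 0.05 of all genes it tested. The median log2 fold change was 0.41 over the 18 genes and -0.0012 over all genes tested, with 6 of the 18 below 0. Without control 1 the same medians were 0.24 and 0.01, again with 6 of the 18 below 0. None of the 18 genes separated the groups completely in normalised counts, which 0.919% of all tested genes did.

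**Figure D2:**
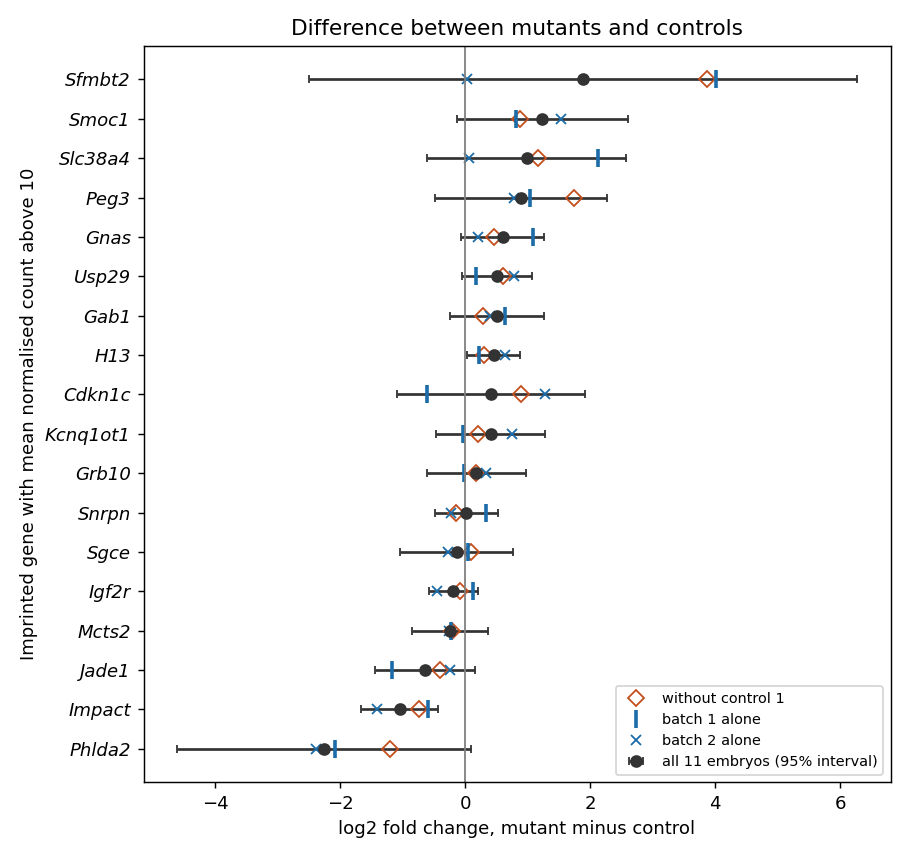
Log2 fold change of mutants against controls for the 18 imprinted genes with a mean normalised count above 10, from DESeq2 with batch as a covariate. Black points with bars give the estimate from all 11 embryos with its 95% interval, open diamonds the estimate without control 1, vertical ticks batch 1 alone and crosses batch 2 alone. Among the 18 intervals, those of *Impact* and *H13* leave out 0.

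*Impact* had the lowest p of the 37 genes. Controls were at 213, 295, 307, 411, 448 and 867 normalised counts (867 in control 1), and mutants at 120, 185, 210, 213 and 285. Of the 5 mutants, 4 were below every control, while mutant 4 lay among the controls of its own batch. The estimated log2 change was -1.05 (SE 0.31) and its 95% interval ran from -1.66 to -0.44. DESeq2 gave an unadjusted p = 0.000769 and an adjusted p = 0.058 after Benjamini-Hochberg adjustment over all genes. The value moved with the embryos included. In batch 2 alone it was -1.42 with a DESeq2 adjusted p = 0.0468, and in batch 1 alone it was -0.59 with a DESeq2 adjusted p = 0.926. Whether the 2 batches differed in this was tested as an interaction, which gave a log2 difference of -0.82 with an unadjusted p = 0.178 and an adjusted p = 1 by DESeq2. Without control 1 the log2 fold change was -0.75 with an adjusted p = 0.238 by DESeq2, and without mutant 4 it was -1.40 with an adjusted p = 0.000595 by DESeq2. Without control 3 and without control 4 the adjusted p was 0.0399 and 0.0286 by DESeq2, and with genes of at least 10 counts in 5 libraries it was 0.0448. Depending on the embryo left out the DESeq2 adjusted p ran from 0.000595 to 0.32, and edgeR with all embryos gave an adjusted p = 0.241.

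*H13* pointed the other way. Controls were at 136 (control 1), 255, 272, 283, 322 and 328 normalised counts, and mutants at 319, 332, 339, 384 and 386. The lowest mutant was just inside the control range, and within each batch all mutants were above all controls in normalised counts, as was the case for 1.33% of all genes tested. In TPM this did not hold in batch 1, where control 4 was at 44.4 TPM and mutant 5 at 39.6 TPM. The log2 fold change of *H13* was 0.45 (SE 0.21), with an unadjusted p = 0.0345 and an adjusted p = 0.391 by DESeq2. Without control 1 it was 0.29 with an adjusted p = 0.651 by DESeq2. *Mcts2*, which lies within *H13* on the same strand, had a log2 fold change of -0.25 with a 95% interval from -0.85 to 0.36.

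*Smoc1* was the other gene whose mutants were above every control of their batch, in normalised counts and in TPM. Its controls were at 0 (control 1), 4.96, 6.56, 8.08, 9.69 and 13.9 normalised counts, and its mutants at 9.32, 13.3, 19.5, 23.4 and 23.6. These are small counts, and the log2 fold change of 1.23 (SE 0.70) had an adjusted p = 0.517 by DESeq2. Within the batches the same value was 0.81 in batch 1 and 1.54 in batch 2.

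**Figure D3:**
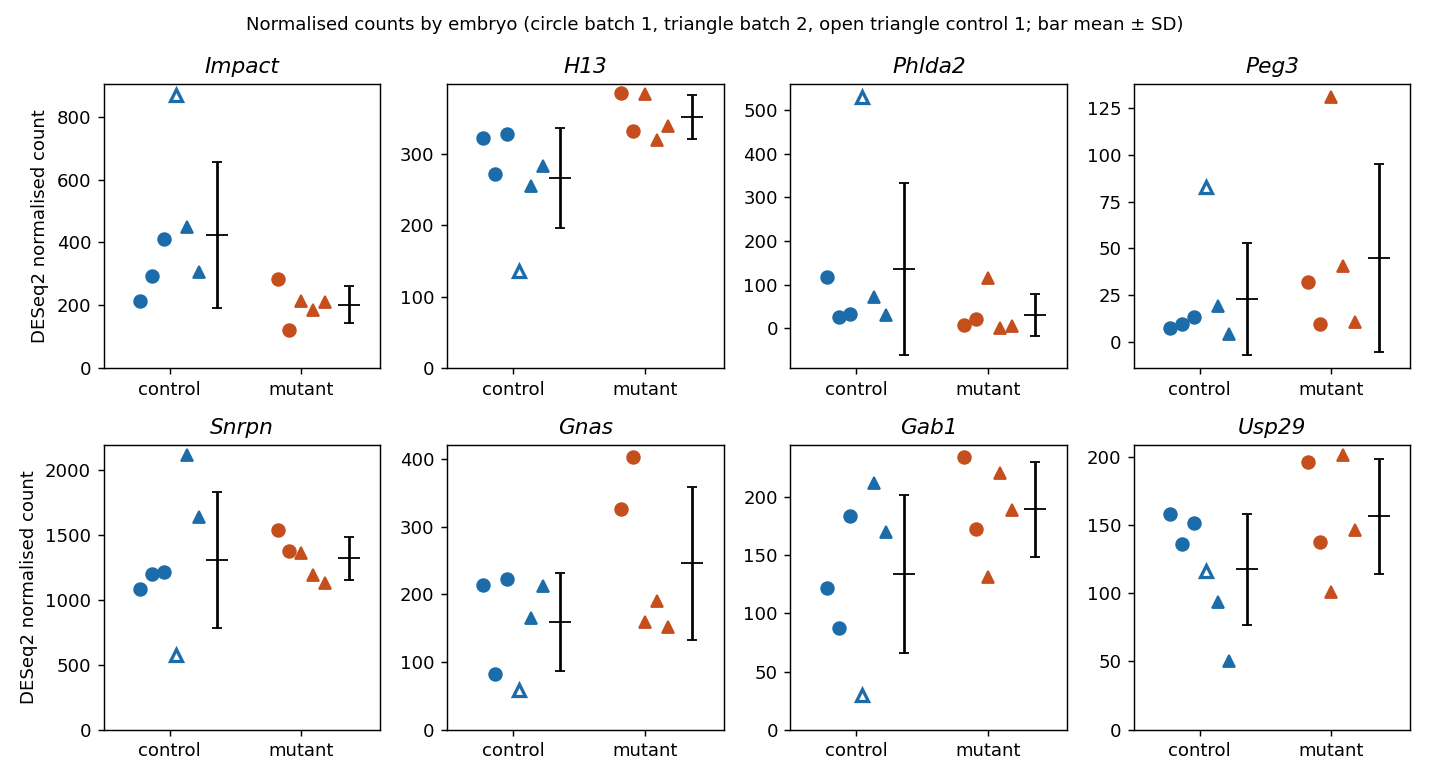
DESeq2-normalised counts of 8 imprinted genes in each embryo, controls left and mutants right, with circles for batch 1, triangles for batch 2 and an open triangle for control 1. Horizontal marks with bars give the mean ± SD. Control 1 is the highest control for *Impact*, *Phlda2* and *Peg3* and the lowest for *H13*, *Snrpn*, *Gnas* and *Gab1*.

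*Phlda2* had the largest estimated difference and the widest uncertainty among the genes with over 50 mean normalised counts. Controls were at 25.6, 30.0, 33.1, 71.2, 118 and 531 normalised counts, the last in control 1, and mutants at 0, 5.85, 6.15, 21.7 and 114. Again 4 of the 5 mutants lay below every control, and mutant 1 lay within the control range. The log2 fold change was -2.26 (SE 1.20), with an unadjusted p = 0.0596 and an adjusted p = 0.472 by DESeq2. Its estimate was -2.08 in batch 1, -2.39 in batch 2 and -1.20 without control 1, for which DESeq2 gave no p because a count was marked as extreme. Without mutant 1 it was -3.77 with an adjusted p = 0.0923 by DESeq2. The edgeR test with all 11 embryos gave an unadjusted p = 0.0307 and an adjusted p = 0.479.

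*Gnas* controls were at 58.8 (control 1), 82.1, 165, 212, 214 and 222 normalised counts, and mutants at 151, 159, 190, 327 and 404. The 2 mutants of batch 1 were above every control, and the 3 of batch 2 lay within the control range. On the log2 scale the difference of *Gnas* was 0.60 (SE 0.34, adjusted p = 0.524 by DESeq2), being 1.08 in batch 1 and 0.20 in batch 2. *Usp29* was at 50.4, 93.8, 116, 136, 151 and 158 normalised counts in controls and 101, 138, 146, 197 and 201 in mutants, a log2 difference of 0.51 (SE 0.28, adjusted p = 0.509 by DESeq2), or 0.34 without control 3. Both groups overlapped for these genes, and neither difference passed the threshold.

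*Peg3* and *Sfmbt2* showed how much single embryos could weigh. *Peg3* controls were at 3.88, 7.38, 9.42, 13.2, 19.1 and 82.9 normalised counts, the highest being control 1, and its mutants were at 9.32, 10.7, 31.8, 40.4 and 131. With all embryos the log2 fold change of *Peg3* was 0.89 (SE 0.70) with an adjusted p = 0.698 by DESeq2, and without control 1 it was 1.74 with an unadjusted p = 0.0138 and an adjusted p = 0.362 by DESeq2. Without mutant 1 it was 0.30 with an adjusted p = 0.942 by DESeq2. *Sfmbt2* was at 0 in 3 controls and 2 mutants, at 22.4 in control 1 and at 70.7 normalised counts in mutant 4. Its log2 fold change was 1.88 (SE 2.23) and turned to -0.74 when mutant 4 was left out, while without control 1 it was 3.87 with an unadjusted p = 0.0968 and an adjusted p = 0.698 by DESeq2.

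The other 10 tested genes had smaller estimates or estimates within their error. For *Snrpn* the log2 fold change was 0.02 with a 95% interval from -0.49 to 0.53, and for *Igf2r* it was -0.19 with an interval from -0.59 to 0.20, so for these 2 abundant genes a change of 2-fold in either direction lay outside the interval. *Slc38a4* (0.98, SE 0.82) and *Gab1* (0.51, SE 0.38) were estimated above 0 on the log2 scale, as were *Smoc1* and *Sfmbt2*. *Jade1* (-0.64, SE 0.41) was the only noncanonical gene estimated below 0, and the interval of every noncanonical gene included 0. *Kcnq1ot1*, *Cdkn1c*, *Grb10*, *Sgce* and *Mcts2* had log2 fold changes between -0.25 and 0.41, each with an interval that included 0. For genes with few counts the intervals were wide, *Cdkn1c* for example reaching from -1.10 to 1.92. Leaving out control 1 took the log2 fold change of *Gab1* to 0.28, of *Jade1* to -0.41, of *Kcnq1ot1* from 0.40 to 0.21 and of *Cdkn1c* from 0.41 to 0.89. Near 0, it took *Igf2r* to -0.09, *Snrpn* to -0.14 and *Sgce* from -0.14 to 0.09. Other embryos weighed as much. Without mutant 1, *Slc38a4* was at 0.39 and *Kcnq1ot1* at 0.04, and without mutant 4, *Jade1* was at -0.36, *Sgce* at -0.60 and *Igf2r* at -0.32 on the log2 scale. *Cdkn1c* came to -0.01 without control 3, *Grb10* went from 0.18 to 0.03 without mutant 3 and to 0.38 without control 4, *Kcnq1ot1* came to 0.74 without control 6, *Snrpn* to 0.24 without control 2, and *Mcts2* came to -0.13 without control 4.

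The batches, which differ in PCR cycles, were compared in the same fit. DESeq2 called 27.2% of all 10448 genes tested between batch 2 and batch 1 (13.4% higher and 13.7% lower in batch 2). Of the 18 imprinted genes 1 was called, *Igf2r*, which is 5.56% of the 18, and 3 were under an unadjusted p of 0.05 (*Igf2r*, *Peg3* and *Grb10*), against 39.7% of all genes. *Igf2r* was at 789, 930, 936, 1219 and 1246 normalised counts in batch 1 and at 1390, 1592, 1694, 1981, 2362 and 2708 in batch 2. The batches did not overlap in normalised counts, as was so for 13.0% of all genes tested, while in TPM control 4 (35.7 TPM) and mutant 4 (32.7 TPM) of batch 1 were above mutant 1 of batch 2 (32.0 TPM). Within each batch the ranges of controls and mutants overlapped, the 2 lowest embryos being controls in batch 1 and mutants in batch 2. Batch 2 was higher by 0.93 on the log2 scale (SE 0.20, adjusted p = 6.8e-05 by DESeq2 and 0.00241 by edgeR). Leaving out any single embryo kept it between 0.83 and 1.06, while up to 3 imprinted genes were called between batches when control 3 or mutant 4 was left out (with *Peg3* in both, *Gnas* in the first and *Impact* in the second), and 2 without control 4 (*Grb10*), control 5 (*Gnas*) or mutant 3 (*Peg3*). Batch 2 also had fewer PCR cycles, higher *Ovgp1* and a wider range of depth. Of the 7 markers of the 8-cell embryo, 4 were called lower in batch 2 (*Pou5f1* -1.53, *Nanog* -0.99, *Tfap2c* -0.94 and *Tead4* -0.76 on the log2 scale, with DESeq2 adjusted p from 1.17e-07 to 0.045). The call of *Nanog* was not made by edgeR (adjusted p = 0.0682), and its DESeq2 adjusted p rose to at most 0.22 when single embryos were left out. The part of each of these differences between batches in the higher *Igf2r* was not tested. None of the tested imprinted genes among the 37 was called for a batch by group interaction by DESeq2 or edgeR, and none was under an unadjusted p of 0.05, where 0.0382% of all genes were called and 4.3% were under 0.05 by DESeq2 (by edgeR 0% and 3.23%).

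**Figure D4:**
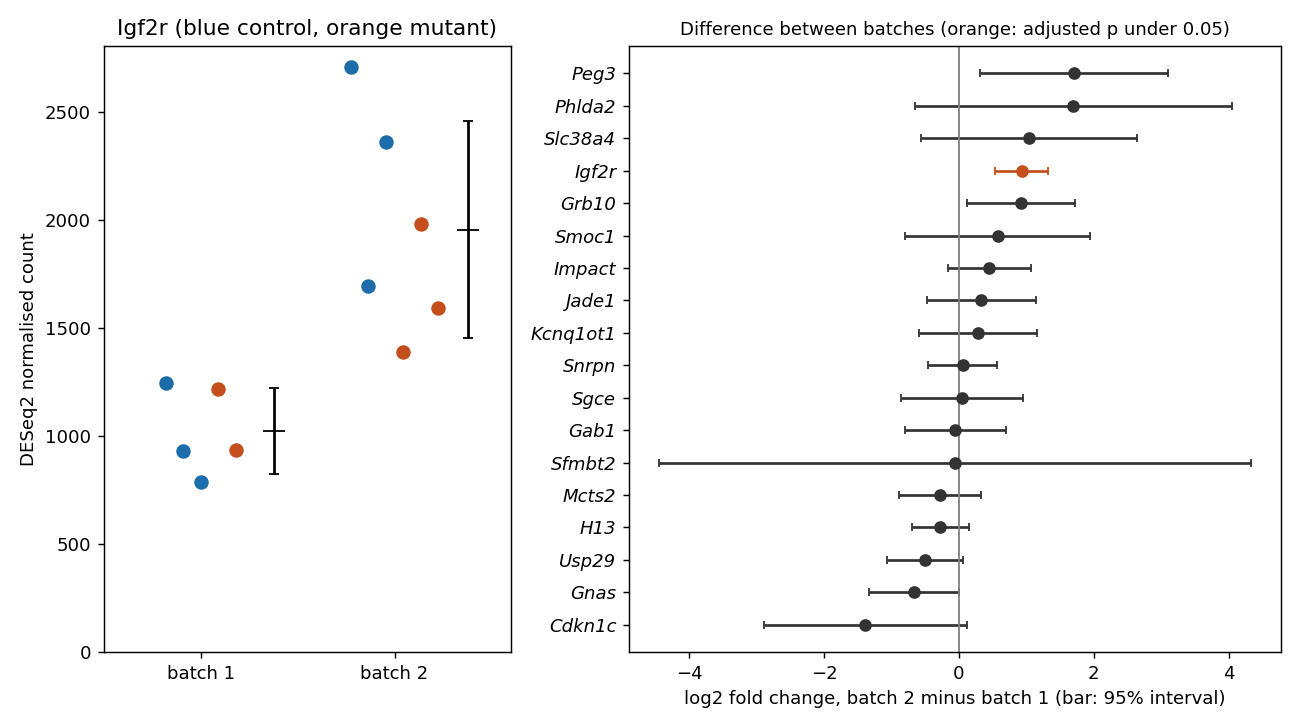
Left, DESeq2-normalised counts of *Igf2r* in each embryo by batch (blue controls, orange mutants, with mean ± SD), where every embryo of batch 2 is above every embryo of batch 1. Right, log2 fold change of batch 2 against batch 1 for the 18 tested imprinted genes with 95% intervals, where orange marks *Igf2r*, the only gene with an adjusted p under 0.05 among them.

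Embryos of a group differed in their imprinted gene levels by amounts that were set beside those of all genes. Among controls the coefficient of variation of normalised counts had a median of 49.4% over the 18 imprinted genes and of 42.2% over all genes tested. Without control 1 the medians were 42.7% and 38.6%. The DESeq2 gene-wise dispersion, which takes the mean count into account, was above the fitted trend for 13 of the 18 genes (72.2%) and for 3973 of all 10448 genes tested, with a median ratio to the trend of 1.86 against 0.782. Without control 1 it was above the trend for 11 of the 18 (61.1%, against 37% of all genes tested), and the median ratios were 1.14 and 0.763. *H13* (26.3%), *Mcts2* (28.8%) and *Usp29* (34.5%) were the steadiest among controls, and *Sfmbt2* (178%), *Phlda2* (146%), *Peg3* (132%) and *Cdkn1c* (109%) the most variable. Without control 1, *Phlda2* came to 70.9% and *Peg3* to 55.1%, while *Cdkn1c* (117%) and *Sfmbt2* (190%) did not become steadier. Control 1 was the highest or lowest embryo for 10 of the 18 imprinted genes (55.6%), where it was so for 34.4% of all genes tested, and no other embryo was extreme for more than 22.2% of the 18.

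**Figure D5:**
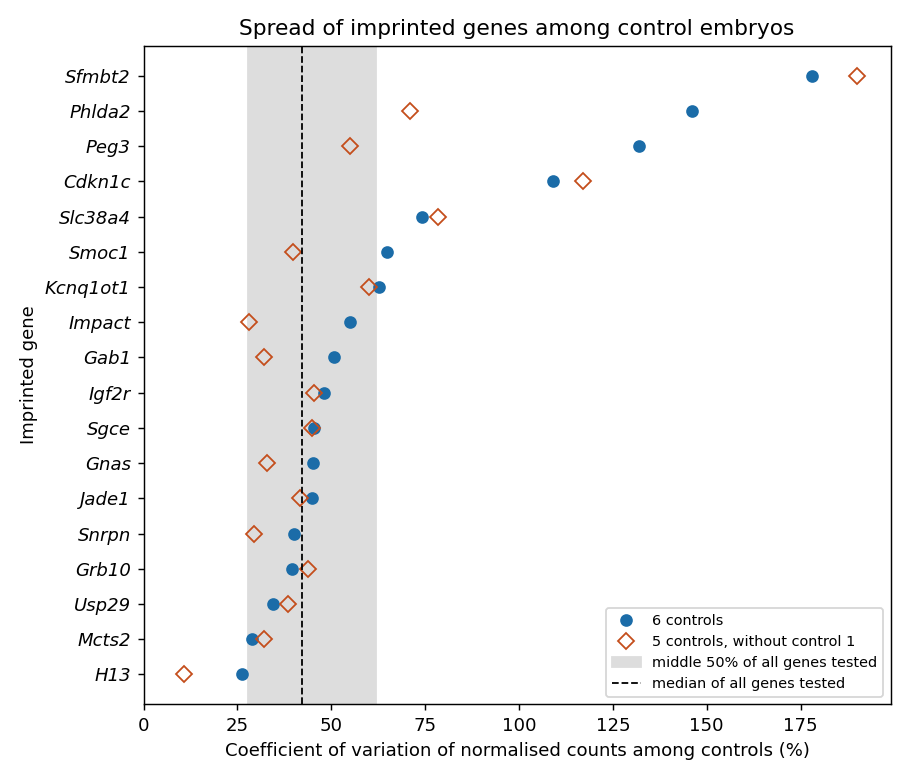
Coefficient of variation of normalised counts among controls for the 18 tested imprinted genes, with all 6 controls (filled points) and without control 1 (open diamonds). The grey band spans the middle 50% of all genes tested, 27.8% to 61.9%, and the dashed line their median of 42.2%. *Peg3* and *Phlda2* drop most when control 1 is left out.

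Genes that act on imprints were followed as a list of 18, many of them known for keeping imprints, with others that set them in the germline (such as *Kdm1b*, *Dnmt3a* and *Dnmt3l*), oxidise methylated DNA (*Tet3*) or are a germline relative of *Ctcf* (*Ctcfl*). Of the 18 genes, 16 reached a mean of 1 TPM in controls, and the 5 highest were *Dppa3* (5132 ± 653 TPM), *Trim28* (531 ± 124 TPM), *Eed* (228 ± 51.9 TPM), *Ezh2* (117 ± 24.4 TPM) and *Suz12* (110 ± 50.3 TPM, all SD, n = 6). *Dppa3* is the maternal protein that shields the maternal genome from demethylation, and *Eed*, *Ezh2* and *Suz12* form the core of Polycomb repressive complex 2, which writes H3 lysine 27 methylation. Of the 17 that were tested, DESeq2 called none between mutants and controls, where 1.38% of all genes were called, and 3 (17.6%, against 11.9% of all genes) were under an unadjusted p of 0.05, *Dnmt1* and *Kdm1b* lower and *Eed* higher. *Kdm1b*, a histone demethylase gene of the oocyte, was at 24.2 to 61.0 normalised counts in controls and 15.1 to 29.0 in mutants, with a log2 fold change of -1.12 (SE 0.40, adjusted p = 0.16 by DESeq2). *Eed* was at 731 to 1352 normalised counts in controls and 1096 to 1520 in mutants, the mutants lying above all controls of their own batch, and its log2 fold change was 0.44 (SE 0.19, adjusted p = 0.283 by DESeq2). In TPM the mutants of batch 2 did not lie above all controls for *Eed*, control 2 being at 320.5 TPM. *Dnmt1*, the maintenance DNA methyltransferase, was chosen for a closer look after its values were seen. Its controls were at 62.5, 68.8, 88.4, 104, 112 and 190 normalised counts and its mutants at 22.6, 42.7, 46.8, 50.2 and 80.7. As for *Impact*, 4 of 5 mutants were below every control. Unlike for *Impact*, all mutants were below all controls of their own batch, as was so for 1.41% of all genes tested, and in TPM the groups did not overlap (6.34 to 17.1 TPM in controls, 2.30 to 5.52 TPM in mutants). *Dnmt1* was estimated at -1.05 on the log2 scale (SE 0.33) with an adjusted p = 0.0809 by DESeq2 and 0.297 by edgeR, and with effective length as an offset it was -1.19 and was called. Without control 1 it was -0.89 with an adjusted p = 0.301 by DESeq2.

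Between batches 6 of the 17 tested genes of this list were called, 35.3% where the background was 27.2%, and all 6 were higher in batch 2. They were *Suz12* (log2 fold change 1.43, SE 0.16), *Zfp445* (1.12, SE 0.23), *Cbx5* (0.84, SE 0.18), *Ctcf* (0.73, SE 0.19), *Setdb1* (0.63, SE 0.24) and *Dppa3* (0.43, SE 0.13). Their DESeq2 adjusted p ran from 1.78e-17 for *Suz12* to 0.0489 for *Setdb1*, and edgeR, which called 22.1% of all genes between batches, called all of them but *Setdb1*. The call of *Setdb1* held in 5 of 14 alternatives, among them those without control 2, control 3 or control 4, and was lost when any of the other 8 embryos was left out. The other 5 genes were called in all 14. *Zfp57* itself was at 6.70 ± 1.91 TPM in controls (SD, n = 6) and had a log2 fold change of -0.01 between batches, a gene named after its values were seen.

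A further list of 31 imprinted, host and partner genes had 12 expressed at a mean of 1 TPM in controls and 12 tested, none of them called between mutants and controls by DESeq2 or edgeR. The highest in controls were *Commd1*, *Mcts1*, *Zrsr2*, *Snurf* (0 to 52.2 TPM over all embryos) and *Ube3a* (10.4 ± 4.41 TPM, SD, n = 6). *Snurf* shares its transcript with *Snrpn*, and its reads were split with the least certainty of this list, the posterior SD being 34.2% of the count in the median embryo. *Snurf* had the only unadjusted p under 0.05 of these 12 genes by DESeq2, at a log2 fold change of 1.97 (SE 0.91) with an adjusted p = 0.367, beside 0.02 for *Snrpn*. The estimate for *Snurf* was -0.09 in batch 1 and 3.83 in batch 2, and without control 1 it was 1.29 with an unadjusted p = 0.124 by DESeq2. edgeR with all embryos gave an unadjusted p = 0.105. For a batch by group interaction *Snurf* and *Trappc9*, 2 of the 12, were under an unadjusted 0.05 by DESeq2 (0.0185 and 0.0483), 16.7% where 4.3% of all genes were, and 1 of the 12 by edgeR, where 3.23% of all genes were. Both had an adjusted p = 1 by DESeq2. *Zrsr2*, the X-linked source gene of *Zrsr1*, was the only gene of the 12 called between batches (8.33%, against 27.2% of all genes), being lower in batch 2 by a log2 value of -0.76 (SE 0.24, adjusted p = 0.0116 by DESeq2). It was called in 12 of 14 alternatives and not without mutant 4 or without mutant 5, where the adjusted p rose to at most 0.0645 by DESeq2.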

How the data were processed

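RNA-seq was performed on 11 single embryos, 6 control and 5 mutant, at embryonic day 2.5. The authors mapped 75-base single-end reads to GRCm38.p6 with STAR (version 2.6.0c) and used RSEM with GENCODE M18 to give, per gene, the deposited expected count, which divides shared reads among genes, and the deposited TPM. A deposited comparison table with the authors' fold changes and p-values was not used. Groups and batches came from the labels, replicate numbers follow accession order, no pair of libraries was identical, and separate litters are not stated, so p-values measure the spread between these embryos.

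Expected counts were rounded and tested over all genes with DESeq2 (version 1.42.0 in R 4.3.3, batch and group as terms, unshrunken, Benjamini-Hochberg), called where the adjusted p was under 0.05 and the mean normalised count (baseMean) over 10. edgeR (version 4.0.16) quasi-likelihood and limma (version 3.58.1) on log2(TPM + 1) were alternatives, among the filters, batch settings and left-out embryos in the closing section. Scripts were tested on simulated data. Coordinates and overlaps came from GENCODE M21, the same build. Genes with an unadjusted p under 0.05 or called between batches were named with their tests, and of the other lists those called and the 5 highest in controls, with partners. Members and lists were chosen with earlier results of these data known, and no value entered the choice of members as a cutoff. No promoter sequence was used for 7 genes (*Cdkn1c*, *H19*, *Impact*, *Peg10*, *Rtl1*, *Sgce* and *Smoc1*).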

Additional observations from a re-analysis of the deposited data

Results flagged for a closer look

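For each of the 18 tested imprinted genes, the highest and the lowest embryo of each group were compared with the rest of their group, which made 36 groups of normalised counts. An embryo was taken as apart where its gap to the nearest of the others, as a share of the range of its group, was above Dixon's 95% critical value. Chance gives this in about 1 group of 20 for normally distributed values. Normalised counts need not be so distributed and the batches were pooled, so that rate is nominal here. This was so in 8 of the 36 groups (22.2%), and in 7.55% of the 20896 groups of all genes tested, of which 28.1% concerned control 1. Of the 8, 4 concerned control 1. It stood at 867 for *Impact*, where the other controls were between 213 and 448, at 531 for *Phlda2* (others 25.6 to 118), at 82.9 for *Peg3* (others 3.88 to 19.1) and at 22.4 for *Sfmbt2* (others 0 to 6.56). Mutant 1 was apart for 3 genes, at 131 for *Peg3* (other mutants 9.32 to 40.4), 114 for *Phlda2* (others 0 to 21.7) and 299 for *Kcnq1ot1* (others 93.0 to 133). Mutant 4 was at 70.7 for *Sfmbt2*, where the other mutants were between 0 and 14.3. The summed oviduct markers were highest in control 1, at 74.3 TPM, of which 49.2 TPM was *Epcam*, while *Ovgp1*, *Pax8* and *Foxj1* were each highest in mutant 3 (*Ovgp1* at 30.1 TPM there and 24.2 TPM in control 1). Blood markers summed to 10.9 TPM in control 1, the highest of the embryos, and cumulus and granulosa markers were at 0 in it. The part of other cells in its imprinted gene values was not tested.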

How the results depend on the processing

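No paired analysis was possible because replicate numbers follow accession order and do not pair embryos. The count of imprinted genes called between mutants and controls was 0, and it became 1 (*Impact* in each case) with genes of at least 10 counts in 5 libraries and in batch 2 alone, and ran from 0 to 1 when single embryos were left out (1 without control 3, without control 4 or without mutant 4). The cause of these changes was not tested. The called genes of the list acting on imprints went from 0 to 1 (*Dnmt1*) with effective length as an offset. Between batches, the count of imprinted genes ran from 1 to 3 when single embryos were left out. *Igf2r* was called in all 14 alternatives. *Peg3* was added without control 3, mutant 3 or mutant 4, *Gnas* without control 3 or control 5, *Grb10* without control 4 and *Impact* without mutant 4. The interaction count and the mutant against control count of the other imprinted list stayed at 0 in every alternative run. The count of imprinted genes expressed in controls ran from 10 (mean of at least 5 TPM) to 17 (mean of at least 0.5 TPM). Of 414 fits of single imprinted genes under alternatives, 392 gave a test, of which 374 kept their direction, and the 18 that turned belonged to *Cdkn1c*, *Grb10*, *Igf2r*, *Kcnq1ot1*, *Sgce* and *Snrpn*, none with an adjusted p under 0.05. Among the 22 below the filter or without a p, 20 had an estimate and 1 turned (*Sfmbt2* without mutant 4, -0.74). Without control 1 the counts called were 0 between groups and 1 between batches. The summed levels, the median changes and the dispersions without control 1 were computed after the data were seen. Depth limits the genes with few reads most, and 19 of the 37 were below the mean count of 10. Without that filter 1 of these, *Zrsr1*, had an adjusted p (0.965 by DESeq2).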
